A study of Mus musculus with 6 samples.

Results

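The genes described here encode the mouse transferases that build the outer sugar and sulfate structures of mucosal glycans. They were chosen by symbol alone, as the rows of the count tables whose name begins with *St3gal*, *St6gal*, *St6galnac*, *St8sia*, *Fut*, *B3gnt*, *B3galt*, *B4galt*, *B4galnt*, *Galnt*, *Galntl*, *Gcnt* or *Chst* and ends in a number. This rule found 90 of the 23420 genes. It uses names only, but it was chosen with earlier results of these data known. RNA was sequenced from the uterine luminal layer, cut out by laser microdissection, and from blastocysts flushed from the uterus, both taken at 8 pm on day 4 of pregnancy. All dams carried the *Lif*-floxed/floxed genotype. Controls had no Cre and received PBS. *Lif* eKO dams carried *Ltf*-Cre/+, which deletes *Lif* where the lactoferrin promoter is active, in the uterine epithelium, and received PBS. The last group was *Lif* eKO dams given recombinant Lif (rLif) by intraperitoneal injection at 10 am and 6 pm. The embryos of all 3 groups were labelled *Lif*-floxed/+, so the groups of blastocysts differed in the uterus they came from and not in their own genotype label. Each of the 6 groups was 1 library of pooled material, so no value below has a replicate error and none has a p-value. In pooled tissue, fewer cells of a type and less RNA per cell cannot be told apart.

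Glycans of the mucosal surface are built stepwise in the Golgi. Members of the Galnt family start O-glycans on serine or threonine, Gcnt enzymes branch them, B3gnt and B4galt enzymes lengthen the chains with alternating N-acetylglucosamine and galactose, and fucosyl-, sialyl- and sulfotransferases cap them. The same families also build glycolipids and decorate chondroitin chains of proteoglycans. In the uterus, the apical coat of the luminal epithelium is known to be remodelled around the time of implantation, and sulfated or fucosylated chains are classical ligands of selectins.

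Total counts ranged from 18996158 to 28460465 per library, and the 90 genes together took 0.195% to 0.259% of the counts of each library. A transferase was analysed in a tissue when its 3 libraries summed to at least 10 counts, and each ratio below is of counts scaled to a common library size (TMM). A gene is called higher or lower when the exact 95% interval of its ratio lay wholly beyond 2-fold. This interval covers counting error only and compares 2 libraries, not 2 conditions. The targeted gene went against its labels in the luminal layer. *Lif* had 0 counts in the control-labelled library, 28 in the eKO-labelled library (8.20-fold higher with 0 set to 3 counts) and 0 in the rLif-labelled library. For this and every other fold against 0 counts, the exact interval can reach lower folds. The study places uterine *Lif* in the glands before embryo attachment, and the luminal layer was what was cut out here. The *Lif* count covers the whole gene, including exons that Cre leaves in place, and the source of the 28 counts was not tested. Because these counts went against the labels, the luminal libraries are named by label throughout (control-labelled, eKO-labelled and, for eKO with rLif, rLif-labelled). The direction of each luminal difference rests on those labels. The 7 luminal epithelium markers were all found in the luminal libraries, with summed CPM (counts scaled to a common total) of 4581, 6131 and 4695 (control, eKO and rLif labels). Of the embryo lists, the 4 inner cell mass markers summed to 36.0, 18.8 and 30.1 CPM in these libraries, nearly all of it *Klf4* (900, 520 and 783 counts), with *Nanog* and *Pou5f1* at 0 in all 3. The 5 trophectoderm markers summed to 11.3, 5.64 and 6.53 CPM, and 1 was called higher and 2 lower in the eKO-labelled library against the control-labelled one. The 4 primitive endoderm markers summed to 1145, 1755 and 2594 CPM, nearly all of it *Sox17* (27110, 48998 and 65587 counts), with *Gata4* at 0 in all 3. RNA of other uterine cells was present, and the 7 stroma markers summed to 692, 1084 and 728 CPM. The 5 immune markers found summed to 801, 665 and 641 CPM, the 5 endothelium markers to 45.9, 66.4 and 91.2 CPM, the 5 smooth muscle markers to 56.7, 40.3 and 26.2 CPM and the 5 gland markers found to 10.4, 11.8 and 23.0 CPM. Of the luminal epithelium markers, 2 were called higher and 2 lower in the eKO-labelled library against the control-labelled one. Of the other lists, 1 stroma gene and 1 endothelium gene were called higher and 1 gland gene and 2 smooth muscle genes lower in that comparison. In the rLif-labelled library against the eKO-labelled one, 2 luminal epithelium, 3 gland, 1 endothelium and 1 trophectoderm gene were called higher, and 2 luminal epithelium, 1 smooth muscle, 2 trophectoderm and 1 inner cell mass gene lower. Against the control-labelled library, the rLif-labelled one had 1 gland, 2 endothelium and 1 primitive endoderm gene called higher and 3 smooth muscle genes and 1 trophectoderm gene lower. The part of these cells in the transferase values was not tested.

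In the luminal layer, 80 of the 90 transferases were analysed. *Chst4*, *Chst5*, *Galnt5*, *Galnt9*, *Galnt14* and *St8sia3* had 0 counts in all 3 luminal libraries, which allows up to 3 counts in each, and *B3galt2*, *B4galnt2*, *B4galnt3* and *Fut1* had 1 to 9 counts. Levels of different genes are compared per length, in RPKM (CPM per kilobase of exon). Galactose addition was the most abundant step in the control-labelled library, with a summed level of 182 RPKM over 12 genes, led by *B4galt3* at 60.3 RPKM. Enzymes of this group can make the galactose end on which many capping enzymes act. O-GalNAc initiation followed with 119 RPKM over 18 genes, led by *Galnt11* at 43.5 RPKM. The chondroitin sulfotransferases summed to 69.5 RPKM, of which *Chst12* alone was 49.5 RPKM, and the branching enzymes to 67.9 RPKM, led by *Gcnt2*, the enzyme of I-antigen branching, at 37.0 RPKM. N-acetylglucosamine extension was led by *B3gnt2*, fucose addition by *Fut11* (20.2 RPKM), alpha2,3 sialic acid addition by *St3gal1* (19.8 RPKM), alpha2,6 sialic acid addition by *St6galnac2* (28.8 RPKM), and N-acetylgalactosamine addition by *B4galnt1* (16.8 RPKM). Genes that sulfate galactose or N-acetylglucosamine were led by *Chst2* at 8.03 RPKM. The alpha2,8 sialyltransferases were the least abundant group, and together reached 1.32 RPKM, with *St8sia4* at 0.52 RPKM.

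**Figure D1:**
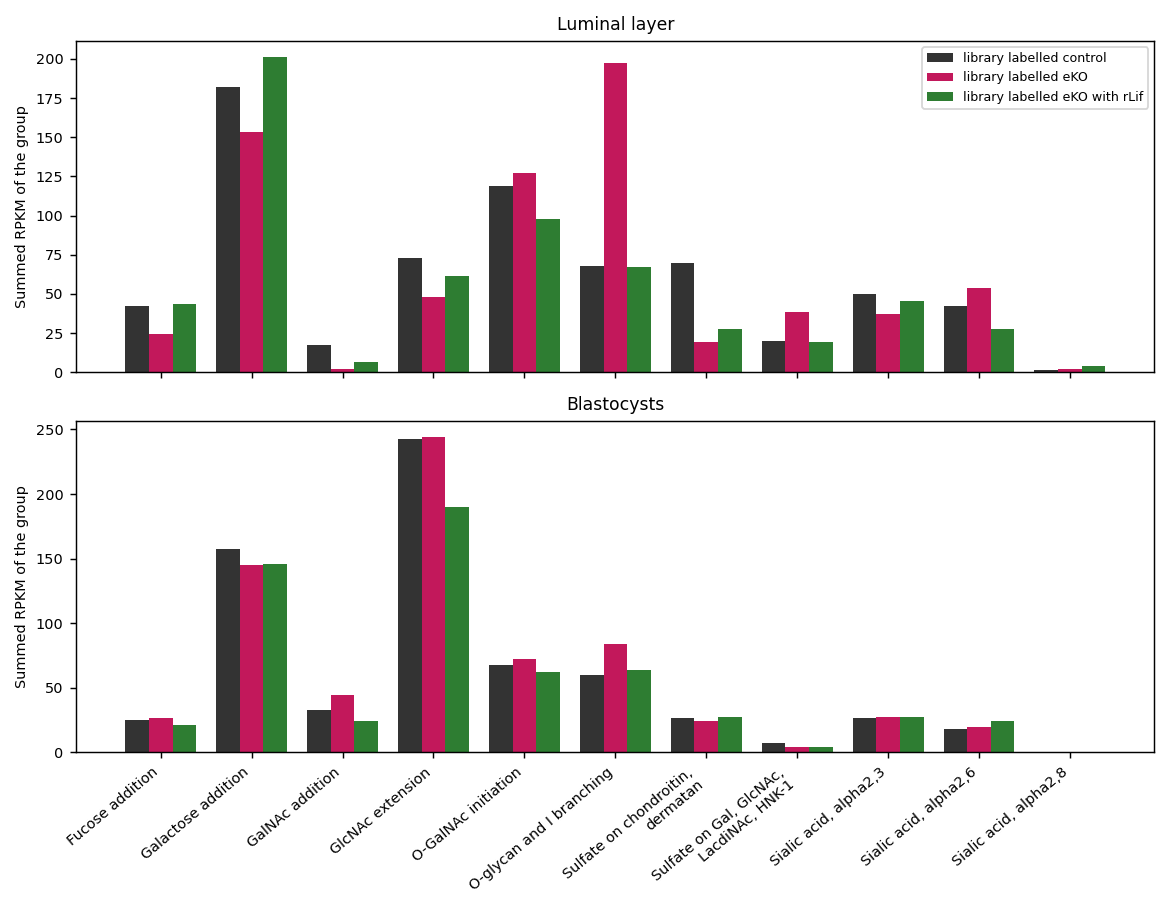
Summed RPKM (vertical axis) of the transferases in each of 11 role groups (horizontal axis) in the 3 luminal libraries (upper panel) and the 3 blastocyst libraries (lower panel). Each bar is 1 library with no error. The branching group stands at 197 RPKM in the eKO-labelled luminal library against 67.9 and 67.4 RPKM in the other luminal libraries, and the chondroitin sulfotransferases stand at 19.1 RPKM against 69.5 and 27.9 RPKM.

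The first comparison asked which transferases differed in the luminal layer when *Lif* was deleted in the epithelium. In the eKO-labelled library against the control-labelled one, 9 of the 80 analysed transferases were called higher (11.2%) and 13 lower (16.2%). Among all 15694 analysed genes, 8.08% were called higher and 9.15% lower. The median log2 ratio of the transferases was -0.47, against -0.0027 for all genes, and 52 of the 80 lay below 0 (65% against 50.1% of all genes). *Galntl5*, *B3gnt6* and *B3galt5* reached the minimum of 10 counts through this 1 library. The next comparison asked which of them moved when Lif was supplied. In the rLif-labelled library against the eKO-labelled one, 16 transferases were called higher (20%) and 9 lower (11.2%), against 7.88% and 7.77% of all genes. Between the rLif-labelled and control-labelled libraries, 4 transferases were called higher and 4 lower (5% each), close to the 4.12% and 5.04% of all genes. With library sizes scaled by total counts alone, that last split became 3 higher and 8 lower, beside 9.37% of all genes called in either direction and a median log2 ratio of all genes of -0.175. The 3 luminal comparisons share libraries, so their values are given side by side below and no agreement between them was tested.

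**Figure D2:**
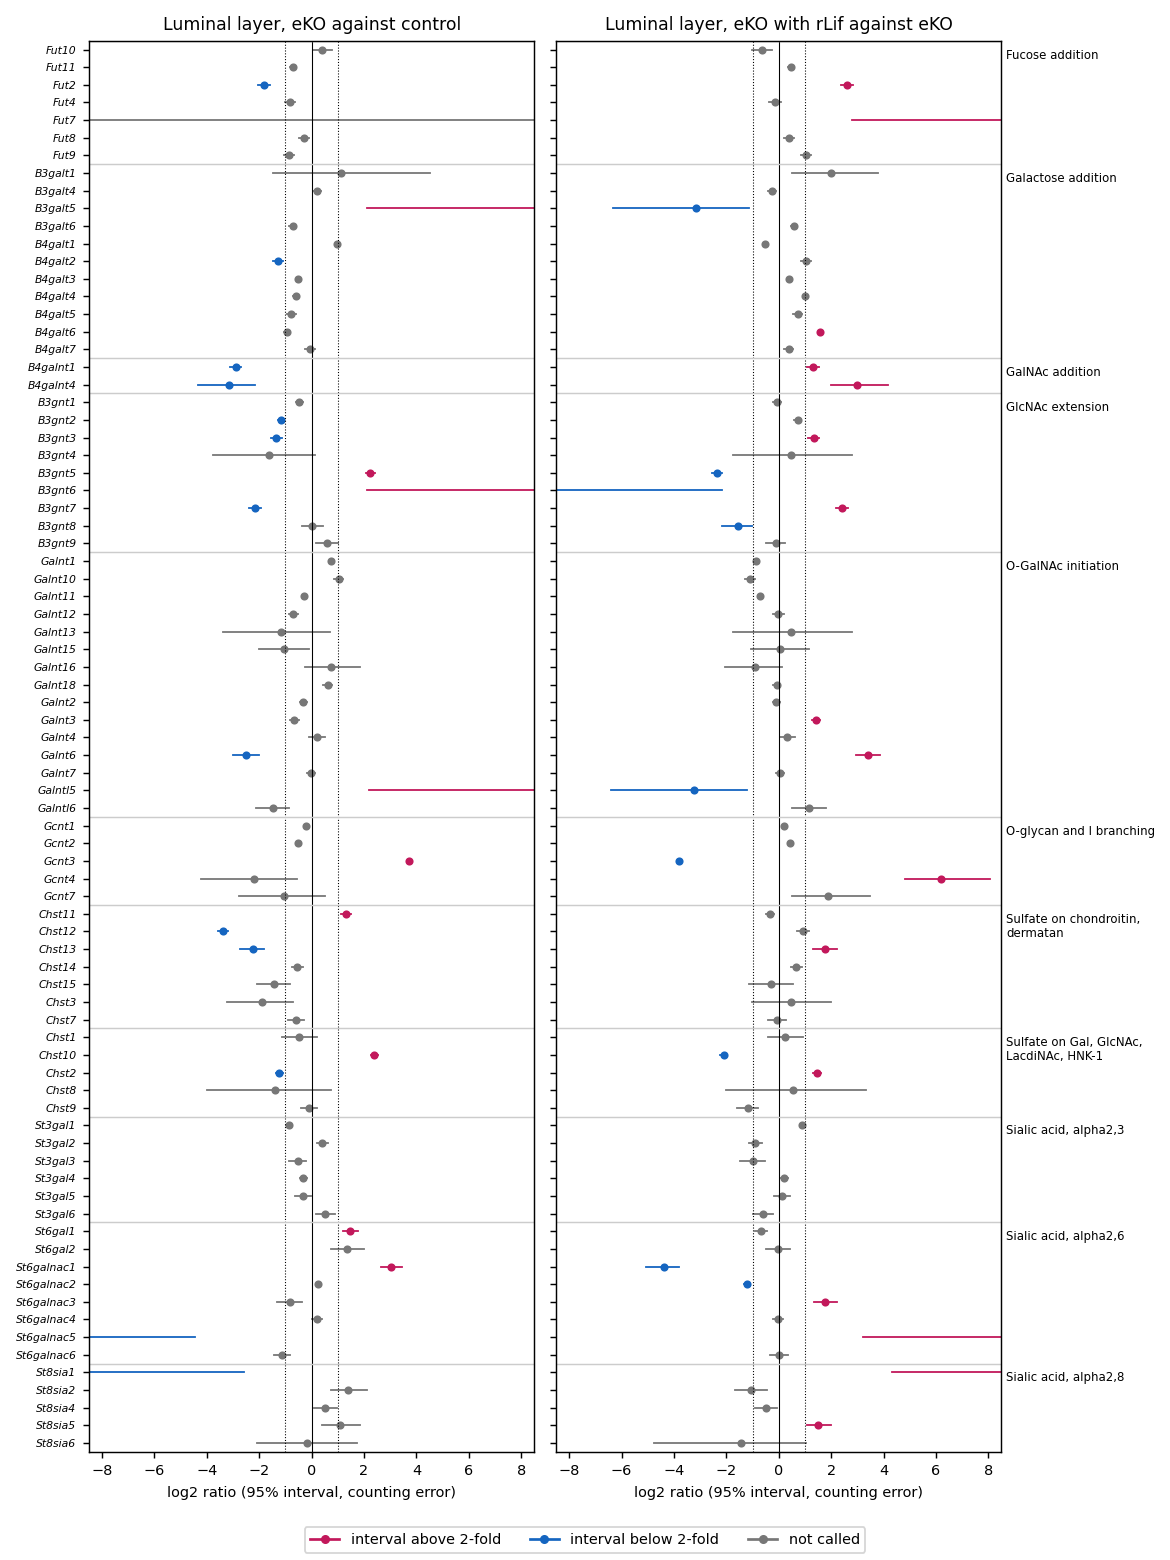
Log2 ratio with its exact 95% counting interval (horizontal axes) for the 80 transferases analysed in the luminal layer (rows, grouped by role), for the eKO-labelled library against the control-labelled one (left) and for the rLif-labelled one against the eKO-labelled one (right). Dotted lines mark 2-fold, genes with 0 counts in 1 library are drawn as an interval without a point, and intervals are cut at the axis limits. *Gcnt3* lies at 3.73 on the left and -3.79 on the right. The 6 alpha2,3 sialyltransferases hold no call in either panel, beside 17.23% (left) and 15.65% (right) of all genes called.

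The largest transferase difference in reads was in the branching step. *Gcnt3* (chromosome 9, 70031496 to 70038088, minus strand, GRCm38) encodes the mucin-type branching enzyme that makes core 2 and core 4 O-glycans and can also make I branches. It had 1268 counts in the control-labelled library, 19153 in the eKO-labelled one and 1251 in the rLif-labelled one. The eKO-labelled library stood alone, 13.3-fold above control (log2 ratio 3.73, interval 3.65 to 3.81) and 13.9-fold above eKO with rLif, whereas the other two differed by a log2 ratio of -0.06. Per length, *Gcnt3* was at 11.7, 155 and 11.2 RPKM and was the most abundant of the 90 genes in the eKO-labelled library. *Gcnt4*, another core 2 enzyme, had 16, 4 and 262 counts. It was high only in the rLif-labelled library among the 3 luminal libraries, 72.2-fold above eKO (log2 ratio 6.17, interval 4.80 to 8.06) and 15.9-fold above control (3.99, interval 3.26 to 4.82), but reached only 1.98 RPKM there. *Gcnt2* had 6574, 5247 and 6413 counts and was not called in any luminal comparison.

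Chain extension by B3gnt enzymes held calls in both directions. *B3gnt5*, the enzyme that starts lacto-series glycolipids, had 303, 1635 and 287 counts (control, eKO and rLif labels). The eKO-labelled library was 4.74-fold above control (log2 ratio 2.25, interval 2.07 to 2.43) and 5.16-fold above eKO with rLif. *B3gnt6*, the core 3 synthase of mucin O-glycans, had 0, 20 and 0 counts. With 0 set to 3 counts, the eKO-labelled library was 5.86-fold above the control-labelled one. *B3gnt7*, *B3gnt3* and *B3gnt2* were called lower in that library. *B3gnt7*, known for keratan sulfate chains, had 807, 206 and 987 counts, 4.46-fold lower in the eKO-labelled library than in control (log2 ratio -2.16, interval -2.38 to -1.93). *B3gnt3*, which extends core 1 O-glycans, had 608, 272 and 622 counts (log2 ratio -1.35), and *B3gnt2*, a main poly-N-acetyllactosamine synthase, had 1710, 863 and 1288 counts (log2 ratio -1.17). Both were lowest in the eKO-labelled library, and *B3gnt3* and *B3gnt7* were called higher again in the rLif-labelled one against eKO, at log2 ratios of 1.33 and 2.40. *B3gnt8*, a partner of *B3gnt2*, had 98, 114 and 35 counts, was not called for eKO against control, and was called lower in the rLif-labelled library against the eKO-labelled one (log2 ratio -1.56).

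Of the galactosyltransferases, *B4galt2* was called lower in the eKO-labelled library against control. It had 740, 344 and 639 counts (log2 ratio -1.29, interval -1.48 to -1.10). *B4galt6*, which makes lactosylceramide, the base of many glycolipids, had 2121, 1245 and 3382 counts, and the rLif-labelled library stood above the eKO-labelled one by a log2 ratio of 1.58. *B3galt5*, an enzyme of type 1 chains, had 0, 20 and 2 counts. It was 5.86-fold higher in the eKO-labelled library than in control with 0 set to 3 counts. Its log2 ratio was -3.18 (interval -6.32 to -1.14) for eKO with rLif against eKO. *B3galt1*, also of type 1 chains, had 2, 5 and 18 counts (log2 ratio 3.13, interval 1.06 to 6.28, for eKO with rLif against control), and reached the minimum of 10 counts only through the rLif-labelled library. Both type 1 genes had at most 20 counts in a library, so their levels are near the limit of detection. The most abundant member, *B4galt3*, had 3040, 2431 and 2901 counts and no call.

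Both N-acetylgalactosaminyltransferases analysed were lowest in the eKO-labelled library. *B4galnt1*, the GM2 and GD2 ganglioside synthase (chromosome 10, 127165156 to 127172340), had 1392, 213 and 478 counts. It was called lower in the eKO-labelled library (log2 ratio -2.89, interval -3.11 to -2.69) and in the rLif-labelled one (log2 ratio -1.59), each against control, and the 2 eKO libraries differed by a log2 ratio of 1.31. *B4galnt4*, which makes LacdiNAc, had 71, 9 and 65 counts (log2 ratio -3.17 for eKO against control and 2.99 for eKO with rLif against eKO). Here the rLif-labelled library lay close to control.

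Among fucosyltransferases, *Fut2* (chromosome 7, 45648591 to 45666394), which makes the H antigen of mucosal surfaces, had 625, 204 and 1129 counts. It was 3.49-fold lower in the eKO-labelled library than in control (log2 ratio -1.80, interval -2.04 to -1.57) and 6.10-fold higher with rLif than in eKO. The rLif-labelled library was the highest of the 3, with a log2 ratio of 0.81 to control that did not pass 2-fold. *Fut1*, its similar neighbour 27532 bases away, had 9, 0 and 0 counts, and reads shared by such copies make small counts of either uncertain. *Fut7*, which completes the selectin ligand sialyl Lewis x, had 0, 0 and 25 counts. With 0 set to 3 counts, it was 8.08-fold higher in the rLif-labelled library than in control and 9.19-fold higher than in eKO. This gene reached the minimum of 10 counts through that library alone. *Fut11* had 1703, 1188 and 1503 counts and no call.

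**Figure D3:**
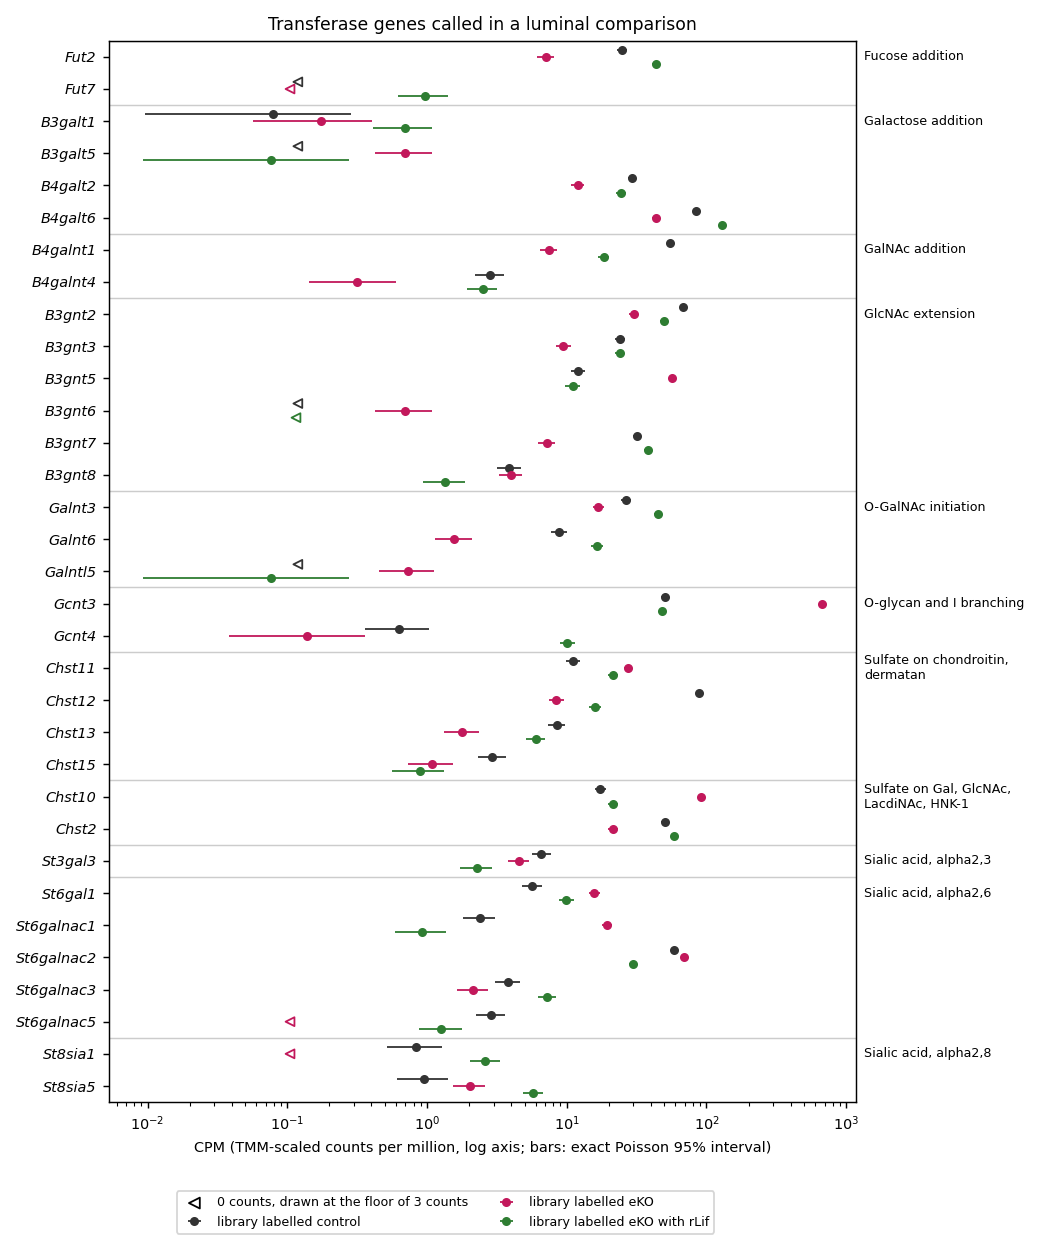
CPM on a log axis (horizontal) for the 33 transferases called in at least 1 luminal comparison (rows, grouped by role), with 1 point per library and exact Poisson 95% bars. Open triangles mark 0 counts and sit at the floor of 3 counts. *Gcnt3*, *B3gnt5*, *Chst10* and *St6galnac1* have the eKO-labelled library to the right of the other 2, and *Fut2*, *B3gnt7*, *Galnt6* and *Chst2* have it to the left.

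The sialyltransferases are given by the linkage they make. None of the 6 alpha2,3 sialyltransferases was called in the eKO-labelled library against control, where their log2 ratios ran from -0.88 (*St3gal1*) to 0.52 (*St3gal6*). Of all genes, 8.08% were called higher and 9.15% lower in that comparison, so few calls would be met in any 6 genes. The 1 alpha2,3 call in the luminal layer was *St3gal3*, with 166, 130 and 59 counts, lower in the rLif-labelled library than in control (log2 ratio -1.54, interval -1.99 to -1.10). In the alpha2,6 group, *St6galnac1*, which makes the sialyl-Tn antigen by capping the first sugar of an O-glycan, had 60, 558 and 24 counts (chromosome 11, 116765025 to 116775507). It was 8.18-fold higher in the eKO-labelled library than in control (log2 ratio 3.03, interval 2.65 to 3.44) and 21.1-fold lower with rLif than in eKO. Its neighbour on the same strand, *St6galnac2*, lies 70365 bases away and had 1476, 1991 and 778 counts. The log2 ratio of *St6galnac2* was 0.25 for eKO against control, which was not called, and -1.21 for eKO with rLif against eKO, which was. *St6gal1*, which caps N-glycans, had 143, 453 and 258 counts and was called higher in the eKO-labelled library (log2 ratio 1.48). *St6galnac5*, a ganglioside enzyme, was the reverse, with 72, 0 and 33 counts. With 0 set to 3 counts, it was 27.3-fold lower in the eKO-labelled library than in control and 12.1-fold higher with rLif than in eKO. *St6galnac3* had 96, 61 and 189 counts (log2 ratio 1.77 for eKO with rLif against eKO).

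The alpha2,8 sialyltransferases were low throughout. *St8sia1*, the GD3 ganglioside synthase, had 21, 0 and 68 counts. With 0 set to 3 counts, it was 7.96-fold lower in the eKO-labelled library than in control, and it was called higher with rLif than in eKO. Its exons overlap those of *Gm7457* in the deposited annotation, so its reads are uncertain. *St8sia5*, which adds sialic acid to gangliosides, had 24, 58 and 150 counts and was highest in the rLif-labelled library, with log2 ratios of 2.60 to control and 1.51 to eKO. None of the group exceeded 2.74 RPKM in a luminal library.

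Of the 15 genes analysed in the O-GalNAc initiation group, *Galnt6* was called lower and *Galntl5* higher in the eKO-labelled library against control. Among all genes, 8.08% were called higher and 9.15% lower there. *Galnt6* had 222, 45 and 427 counts, 5.61-fold lower in the eKO-labelled library than in control (log2 ratio -2.49, interval -2.98 to -2.02) and 10.5-fold higher with rLif than in eKO. Its close relative *Galnt3* had 670, 483 and 1162 counts and was called higher with rLif against eKO (log2 ratio 1.41). *Galntl5* had 0, 21 and 2 counts, 6.15-fold higher in the eKO-labelled library than in control with 0 set to 3 counts. *Galnt11*, the most abundant initiator in control, had 2791, 2592 and 1434 counts and was not called.

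Sulfotransferases gave some of the widest ratios. *Chst12* (chromosome 5, 140505609 to 140525238), which sulfates carbon 4 of chondroitin, had 2233, 242 and 415 counts. It was 10.5-fold lower in the eKO-labelled library than in control (log2 ratio -3.39, interval -3.59 to -3.20) and 5.55-fold lower in the rLif-labelled one than in control, so both eKO libraries lay far below control. *Chst13*, with the same activity, had 214, 51 and 156 counts (log2 ratio -2.25 for eKO against control). *Chst11*, a further enzyme of chondroitin 4-sulfation, moved the other way with 280, 788 and 562 counts (log2 ratio 1.31 for eKO against control). Per length, these 3 genes were at 49.5, 5.13 and 2.01 RPKM in the control-labelled library and at 4.72, 1.08 and 4.97 RPKM in the eKO-labelled one. *Chst15*, which adds a further sulfate to chondroitin 4-sulfate, had 74, 31 and 23 counts and was called lower in the rLif-labelled library against control (log2 ratio -1.73), and its exons overlap *Gm10584*. *Chst10*, the HNK-1 sulfotransferase (chromosome 1, 38863873 to 38898160), had 440, 2640 and 559 counts, 5.27-fold higher in the eKO-labelled library than in control (log2 ratio 2.40, interval 2.25 to 2.55). *Chst2*, which sulfates N-acetylglucosamine in selectin ligands and keratan sulfate, had 1266, 614 and 1532 counts (log2 ratio -1.23 for eKO against control and 1.46 for eKO with rLif against eKO).

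Genes that supply or trim the same glycans were taken from a list of 53 genes outside the 90, and 51 were analysed in the luminal layer. In the eKO-labelled library against control, 6 of the 51 were called higher and 8 lower, beside 8.08% and 9.15% of all genes. With rLif against eKO, 5 were called higher and 2 lower (7.88% and 7.77% of all genes), and with rLif against control 1 higher and 5 lower (4.12% and 5.04% of all genes). *Fuk*, the fucose salvage kinase, had 464, 2274 and 518 counts (log2 ratio 2.11 for eKO against control), and *Neu2*, a cytosolic sialidase, had 172, 939 and 169 counts (log2 ratio 2.26). Both stood high in the eKO-labelled library alone among the 3. *Mgat4a*, which adds a branch to N-glycans, had 963, 142 and 973 counts (log2 ratio -2.95) and *Mgat1*, which opens complex N-glycan synthesis, had 2146, 754 and 1285 counts (log2 ratio -1.69). *Ust*, a uronyl sulfotransferase of chondroitin and dermatan chains, had 205, 31 and 56 counts (log2 ratio -2.91), and *Gal3st1*, the sulfatide synthase, had 3177, 1286 and 1375 counts (log2 ratio -1.49), so the 2 eKO libraries lay below control for both. *Neu1*, the lysosomal sialidase, had 5923, 2166 and 3539 counts (log2 ratio -1.64). *Gfpt2*, of the hexosamine pathway, had 1, 20 and 41 counts, with a log2 ratio of 4.14 whose interval ran from 1.49 to 9.51. Other donor-supply genes were called for rLif against eKO, with log2 ratios of 1.59 for *Gmds*, the first enzyme of GDP-fucose synthesis, 1.31 for *Gnpnat1*, 1.25 for the sulfate donor transporter *Slc35b3*, and 1.13 for *Cmas*, which activates sialic acid. *Gnpnat1* shares exon positions with *Styx*.

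In blastocysts, 74 of the 90 transferases were analysed. *B3galt1*, *B3galt5*, *Fut7*, *Galnt5*, *Galnt9*, *Galnt14*, *Galnt15*, *Galntl6*, *St6gal2* and *St6galnac5* had 0 counts in all 3 blastocyst libraries, and *Chst9*, *Fut1*, *Galnt13*, *St6galnac1*, *St8sia3* and *St8sia5* had 1 to 9 counts. Extension by N-acetylglucosamine was the most abundant step in the control library, with 242 RPKM over 9 genes, of which *B3gnt5* was 142 RPKM. This gene had 13222, 14167 and 9608 counts in the control, eKO and eKO with rLif blastocysts. The leading genes of the other groups in the control library were *B4galt3* (56.5 RPKM), *Gcnt1*, a core 2 branching enzyme (46.9 RPKM), *B4galnt3* (27.5 RPKM), *Galnt1* (24.5 RPKM), *Fut8*, the core fucosyltransferase (17.8 RPKM), *St6galnac2* (15.4 RPKM), *Chst12* (14.6 RPKM), *St3gal6* (13.3 RPKM), *Chst5* (4.45 RPKM) and *St8sia4* (0.17 RPKM).

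Calls among the 74 blastocyst transferases numbered at most 6 per comparison. In eKO against control, 0 were called higher and 1 lower (1.35%), beside 1.29% and 1.86% of all 14873 analysed genes. In eKO with rLif against control, 0 were called higher and 2 lower (2.7%), beside 0.948% and 3.99% of all genes. In eKO with rLif against eKO, 2 were called higher (2.7%) and 4 lower (5.41%), both above the 0.914% and 2.83% of all genes. *Chst4*, an N-acetylglucosamine sulfotransferase of selectin ligands, had 52, 2 and 26 counts and was low in the eKO blastocysts (log2 ratio -4.74, interval -7.82 to -2.81, against control, and 3.71, interval 1.71 to 6.83, for rLif against eKO). *Galnt10*, an initiating enzyme, had 238, 152 and 62 counts and was lower with rLif than in control (log2 ratio -1.97, interval -2.40 to -1.56). *Fut4*, an enzyme of Lewis x, had 41, 20 and 68 counts (log2 ratio 1.77, interval 1.04 to 2.57, for rLif against eKO). The remaining calls were genes of few counts that were highest in the eKO library. *St8sia4*, a polysialic acid synthase, had 18, 26 and 0 counts, *Chst10* had 4, 19 and 0, *St6galnac3* had 12, 42 and 6, and *St8sia6* had 7, 10 and 0. *Chst10* and *St8sia6* reached the minimum of 10 counts only through the eKO library. The 5 immune markers found summed to 57.7, 118 and 20.0 CPM in these libraries, nearly all of it *Lyz2* with 976, 2128 and 289 counts. *Ptprc* (26, 41 and 19 counts) and *Csf1r* (31, 68 and 10) had the same order as *Lyz2*, and *Cd68* (41, 66 and 56) and *Cd3e* (26, 4 and 14) did not. The 7 stroma markers summed to 153, 159 and 150 CPM, most of it *Pdgfra* (2354, 2845 and 2718 counts), while their median was 6.40, 3.07 and 1.44 CPM. As in *Galnt10*, counts were highest in control and lowest with rLif for the stroma genes *Col3a1* (122, 60 and 28), *Dcn* (164, 84 and 51) and *Hoxa10* (48, 17 and 6) and for the epithelial keratin *Krt19* (1401, 241 and 108). Of the stroma list, 1 gene was called lower in eKO and 3 in eKO with rLif against control. The 5 gland markers found summed to 6.71, 3.53 and 1.44 CPM. The part of RNA from such cells in the values of these genes was not tested. The median log2 ratio of the transferases was 0.05 for eKO against control, -0.30 for eKO with rLif against control and -0.24 for eKO with rLif against eKO, against -0.0039, -0.015 and -0.0055 for all genes.

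**Figure D4:**
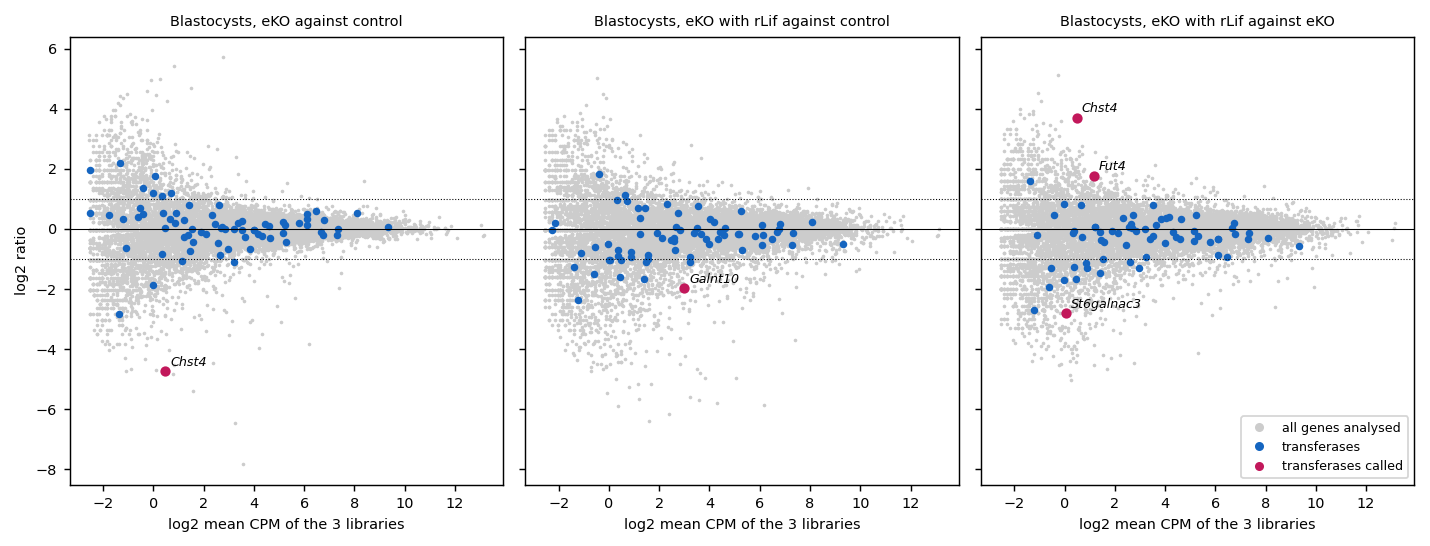
Log2 ratio (vertical axis) against log2 mean CPM of the 3 blastocyst libraries (horizontal axis) for all analysed genes (grey), transferases (blue) and called transferases (magenta) in 3 comparisons. Genes with 0 counts in a compared library have no point, so *St8sia4*, *Chst10* and *St8sia6* are not drawn in the panels that call them. *Chst4* lies at -4.74 for eKO against control and 3.71 for eKO with rLif against eKO.

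The 2 tissues differed in which members of each family were abundant. Between the libraries labelled control, 39 of 80 analysed transferases were called higher in the luminal layer and 15 higher in blastocysts (48.8% and 18.8%), beside 29.6% and 27% of 15597 genes. The median log2 ratio of luminal layer to blastocyst was 1.29 for the transferases and 0.08 for all genes. Tissue and way of collection went together, so they cannot be told apart. Of the alpha2,6 sialyltransferases, 7 of 8 were called higher in the luminal layer, as were 4 of 7 fucosyltransferases and 6 of 13 genes of the initiation group. *St3gal1*, which caps core 1 O-glycans, had 2894 counts in the luminal layer and 14 in blastocysts (log2 ratio 7.43, interval 6.69 to 8.31). *Gcnt3* had 1268 and 12 counts (log2 ratio 6.47), *Galnt18* 506 and 4 (6.73), *Chst10* 440 and 4 (6.52), *Chst2* 1266 and 18 (5.88), *Galnt12* 590 and 12 (5.36) and *Fut2* 625 and 24 (4.45). *Chst9*, a sulfotransferase of LacdiNAc, had 183 and 0 counts, at least 51.1-fold higher in the luminal layer, and *Galntl6* (78 and 0), *St6galnac5* (72 and 0) and *St6galnac1* (60 and 0) were also at 0 in the blastocysts.

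Blastocysts had their own set. *B4galnt3*, which makes LacdiNAc, had 3 counts in the luminal layer and 1550 in blastocysts (log2 ratio -9.27, interval -11.55 to -7.72), the widest ratio among transferases with counts in both control libraries. Its relative *B4galnt4* was called in the opposite direction, with 71 and 14 counts. *B3gnt5* had 303 and 13222 counts, 52.1-fold lower in the luminal layer (log2 ratio -5.70, interval -5.87 to -5.54). Even in the eKO-labelled luminal library, where it was highest, *B3gnt5* stood at 11.7 RPKM against at least 101 RPKM in each blastocyst library. *Chst3*, of chondroitin 6-sulfation, had 26 and 667 counts (log2 ratio -4.94), *Gcnt4* 16 and 212 (-3.98) and *B4galt5*, another lactosylceramide synthase, 661 and 3523 (-2.67). *Chst5* (0 and 164 counts), *B3gnt6* (0 and 91), *B4galnt2*, the Sda antigen enzyme (0 and 67), and *Chst4* (0 and 52) had no counts in the luminal control. With 0 set to 3 counts, they were 65.3-, 36.2-, 26.7- and 20.7-fold lower there. *Gcnt1* was called higher in blastocysts (2281 and 4278 counts, log2 ratio -1.16). The branching step was led by *Gcnt2* at 37.0 RPKM in the luminal layer and by *Gcnt1* at 46.9 RPKM in blastocysts.

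**Figure D5:**
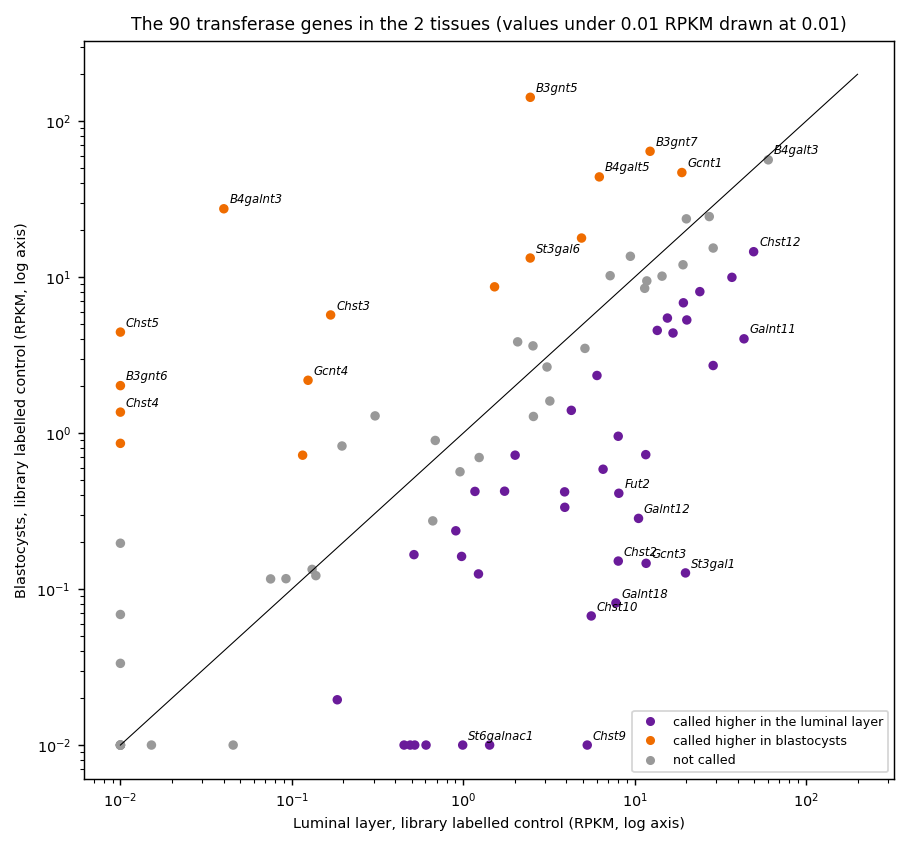
RPKM of the 90 transferases in the luminal layer (horizontal log axis) and in blastocysts (vertical log axis), each in the control-labelled library, with values under 0.01 drawn at 0.01 and the line of equality. *B4galnt3* (3 and 1550 counts) and *B3gnt5* lie far above the line, *St3gal1*, *Gcnt3* and *Galnt18* far below it, and *B4galt3* close to it at 60.3 and 56.5 RPKM.

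Promoter sequence was examined because Lif signals through Stat3, a factor known to bind the palindrome TTCNNNGAA. RefSeq promoter windows (250 bases before to 50 after the gene start, GRCm38.p6) were found for 68 of the 90 genes, and *Gcnt3* and *Fut2* were not among them. The palindrome, which reads the same on both strands, was present in 5 of the 68 (7.35%), *B3galt5*, *B4galt1*, *Galntl6*, *Gcnt2* and *Gcnt4*, against 9.55% of 27025 genes with a window. Of the 5 genes, *Gcnt4* and *B3galt5* had luminal calls and their windows are shown, each on the plus strand and 5′ to 3′, with the palindrome in capitals. In *Gcnt4* (chr13:96924094-96924393), which was highest in the rLif-labelled library, matches begin at positions -170 and 6 from the RefSeq start, and this start lies upstream of the first exon base of the deposited gene model (96924689). In *B3galt5* (chr16:96235551-96235850), highest in the eKO-labelled library, the match begins at position -10. A match is a description of letters, and no binding was measured.
Gcnt4: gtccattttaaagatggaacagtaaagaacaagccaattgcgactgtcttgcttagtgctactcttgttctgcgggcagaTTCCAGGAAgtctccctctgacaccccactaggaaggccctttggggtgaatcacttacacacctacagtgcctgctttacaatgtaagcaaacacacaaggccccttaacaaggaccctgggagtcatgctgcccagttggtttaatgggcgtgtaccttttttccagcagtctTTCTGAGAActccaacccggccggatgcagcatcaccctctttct
B3galt5: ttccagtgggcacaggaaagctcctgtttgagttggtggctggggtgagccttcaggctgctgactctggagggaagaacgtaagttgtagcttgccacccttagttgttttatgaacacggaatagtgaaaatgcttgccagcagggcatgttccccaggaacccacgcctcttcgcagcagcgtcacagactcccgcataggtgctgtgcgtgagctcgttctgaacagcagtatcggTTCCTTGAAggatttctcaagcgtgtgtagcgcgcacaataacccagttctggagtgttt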

How the data were processed

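Each tissue had 1 deposited table of raw counts, which the authors made from SMART-seq v4 libraries of pooled low-input RNA with HISAT2 (GRCm38/mm10) and featureCounts of Subread 2.0.0. The study's methods call this output RPKM, but the values were unnormalized counts. Settings for strand and multiply mapped reads were not given in the sources used here. Rows shared exons with another gene in 2814 cases, 5 of them transferases (*B3gnt4*, *B3gnt9*, *Chst15*, *St3gal4* and *St8sia1*). Of the 90 rows, 89 lay over the GENCODE M21 gene of that name. The *B3gnt1* row holds the gene now named *B4gat1* and is grouped here, under its old symbol, with N-acetylglucosamine extension. Sums of that group therefore include it, at 12.0 RPKM in the control blastocysts, though its present name is not that of an extension enzyme.

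Total counts were 23850565, 28460465 and 27809527 (luminal control, eKO, eKO with rLif) and 18996158, 19638852 and 19417359 (blastocysts). TMM scaling (edgeR 4.0.16 in R 4.3.3) ran over the 3 libraries of a tissue or over all 6 for the tissue comparison, where genes needed 10 counts over the 2 control libraries. CPM and RPKM used these sizes and the deposited exon lengths. For ratios, 95% intervals were exact Clopper-Pearson, and for single counts exact Poisson (SciPy 1.17.1). They cover counting error only, since PCR copies without molecular identifiers are not separate molecules. Folds against 0 counts were computed against 3 counts there, with the other count taken as exact. The exact interval reaches lower folds. For *St6galnac5* in luminal eKO against control, the log2 interval bound nearest 0 was -4.44. The code of the ratio rule was checked on simulated counts with counting error only. Such a check cannot show how the rule behaves under variation between libraries.

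Groups came from the sample labels. Named genes were, in each comparison, the called transferases up to 30 by the interval bound nearest 0, the leading gene of each role group in each control library, genes at 0 throughout, and up to 8 called partner genes per luminal comparison. The tissue comparison did not keep to this rule. Only some of the first 30 were named there, and *B4galnt4*, which lay beyond them, was named beside *B4galnt3*. The transferases, role groups, partner genes and markers were chosen with earlier results of these data known. Alternatives were median-of-ratios (DESeq2 1.42.0) and total-count scaling, other count minimums and ratio limits, edgeR's exact test at a fixed dispersion, and leaving out genes with shared exons.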

Additional observations from a re-analysis of the deposited data

Results flagged for a closer look

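*St6galnac3*, an alpha2,6 sialyltransferase, went in opposite directions in the 2 tissues for eKO with rLif against eKO. In the luminal layer it had 61 counts in the library labelled eKO and 189 in that labelled eKO with rLif (log2 ratio 1.77, interval 1.35 to 2.21). In blastocysts it had 42 and 6 counts (log2 ratio -2.80, interval -4.32 to -1.56). Each value rests on 1 library per group, and the difference between the tissues was not tested.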

How the results depend on the processing

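No paired analysis was possible because each group had 1 library, and no library could be left out of a group for the same reason. The 118 calls of single transferases in the 7 comparisons were all kept with median-of-ratios size factors and with no count minimum beyond 1 count. They were also kept at a ratio limit of 0, which follows from the rule, since each interval lay beyond 2-fold. With at least 50 counts, 100 of the 118 were kept and the others were no longer analysed. Leaving out genes with shared exons kept 113, and the others were again not analysed. None reversed direction under any alternative, which a change of ratio limit alone could not bring about. With total counts, 4 were lost (*B3galt1* for luminal eKO with rLif against control, *B4galnt1* and *St8sia5* for luminal eKO with rLif against eKO, and *St8sia4* between the tissues), and the median log2 ratio of luminal eKO with rLif against control became -0.25, against -0.175 for all genes. At a log2 limit of 2, 54 were lost, and 34 by edgeR's exact test at the study's fold and false discovery limits with the dispersion fixed at 0.1. The numbers of transferases called in either direction moved as follows, with the share of transferases and then of all genes called in brackets. For luminal eKO against control they were 22 at first (27.5% and 17.23%) and 66 at a log2 limit of 0 (82.5% and 74.7%). They were 13 at a limit of 2 (16.25% and 5.531%) and 15 by the exact test (18.75% and 7.965%). The exact test lost *Fut2*, *B3gnt2*, *B3gnt3*, *Chst2*, *Chst11*, *St6gal1* and *B4galt2*. Luminal eKO with rLif against control gave 8 at first (10% and 9.163%), 49 (61.25% and 66.17%) and 3 (3.75% and 1.88%) at those limits, and 4 by the exact test (5% and 2.179%). Luminal eKO with rLif against eKO gave 25 at first (31.25% and 15.65%), then 59 (73.75% and 71.44%), 11 (13.75% and 4.779%) and 13 (16.25% and 7.066%). For blastocyst eKO against control the count went from 1 (1.351% and 3.147%) to 38 at a limit of 0 (51.35% and 44.83%). Blastocyst eKO with rLif against control gave 2 at first (2.703% and 4.935%), then 46 (62.16% and 52.88%), 1 (1.351% and 1.002%) and 0 (0% and 0.8337%). With at least 50 counts it gave 1 (1.639% and 3.616%). Blastocyst eKO with rLif against eKO gave 6 at first (8.108% and 3.745%), then 49 (66.22% and 52.66%), 2 (2.703% and 0.6253%) and 1 (1.351% and 0.39%). With at least 50 counts it gave 3 (4.918% and 2.629%). Between the tissues, 54 (67.5% and 56.61%) became 33 at a limit of 2 (41.25% and 32.27%). The higher numbers at a limit of 0 follow from that setting, as do the lower numbers at a wider limit or a higher count minimum. The cause of the other changes was not tested. *B3galt1*, with at most 18 counts in a library, is limited by depth.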

Other observations

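The blastocyst calls among the 51 partner genes analysed were *Papss1*, *Papss2* and *Gal3st4*, named after their values were seen. In eKO against control, 0 were called higher and 1 lower, beside 1.29% and 1.86% of all genes. In eKO with rLif against control, 1 was called higher and 1 lower (0.948% and 3.99% of all genes). In eKO with rLif against eKO, 1 was called higher and 0 lower (0.914% and 2.83% of all genes). *Papss1* and *Papss2*, which make the sulfate donor of all sulfotransferases, had 191, 68 and 59 counts and 40, 66 and 132 counts in control, eKO and eKO with rLif blastocysts. *Papss1* was called lower in eKO and in eKO with rLif than in control (log2 ratios -1.53 and -1.72), and *Papss2* higher in eKO with rLif than in control (log2 ratio 1.69). *Gal3st4*, a galactose 3-sulfotransferase whose exons overlap another gene, had 9, 3 and 26 counts (log2 ratio 3.12 for eKO with rLif against eKO).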
